A study of Mus musculus with 24 samples.

Results

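Chromatin accessibility at the 5 IL-12 family cytokine genes Il12a, Il12b, Il23a, Il27 and Ebi3 was examined in mouse bone marrow-derived macrophages. The measurement was ATAC-seq, in which Tn5 transposase places sequencing adapters into open chromatin, and the deposited data were lists of accessible regions (peaks). A peak was counted for a gene where its summit had that gene as the nearest protein-coding gene body at a distance of at most 50 kb. This rule gave 446 of the 1274891 peaks in the series, of which Il12a had 131, Il12b 184, Il23a 26, Il27 83 and Ebi3 22. Overlapping peaks of all libraries were merged into 34 regions, of which 28 were found in at least 2 libraries and 9 in all 24. The whole series had 80598 regions found in at least 2 libraries.

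The 24 libraries came from male C57Bl/6 mice and formed 4 groups of 6. These were stimulated macrophages of diabetic mice, stimulated macrophages of control mice, unstimulated macrophages of diabetic mice and unstimulated macrophages of control mice. Diabetes had been induced with streptozotocin (STZ), a toxin of insulin-producing beta cells, so the model is one of insulin loss and not of obesity. Stimulated cells received lipopolysaccharide (LPS, 100 ng/mL), a component of bacterial walls, and interferon gamma (IFNγ, 10 ng/mL), which together drive inflammatory activation. The duration of stimulation is uncertain, because the treatment protocol speaks of another stimulus, IL-1β. Per the series description, cells of each mouse were divided between both states, so both states hold the same animals. Ages of the mice were not stated.

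IL-12 family cytokines are pairs of an alpha subunit and a beta subunit, and they instruct T cells and natural killer (NK) cells. IL-12 joins the p35 subunit from Il12a with the p40 subunit from Il12b and drives IFNγ production. IL-23 joins p40 with the p19 subunit from Il23a and sustains cells that make IL-17, whereas IL-27 joins p28 from Il27 with the EBI3 subunit from Ebi3 and has both activating and restraining roles. Activated macrophages and dendritic cells are major sources of all these subunits, and LPS and IFNγ together are a classical inducer of IL-12.

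Stimulation changed where peaks were found at Il12b, Il12a and Il27, whereas the peaks at Il23a and Ebi3 were present in all 24 libraries. Close neighbours limit the span over which peaks could be assigned to Il23a and Ebi3. Il23a lies 3287 bp from Stat2 and 5249 bp from Pan2, and Ebi3 overlaps Zfp119b and lies 2165 bp from Yju2. The nearest neighbours of Il12b lie 498813 and 39894 bp away. At Il12b, a region 17.8 kb upstream was found in all 12 stimulated and in 0 of 12 unstimulated libraries. At Il12a, a region over the second of its 2 annotated starts was found in 9 stimulated and 0 unstimulated libraries. At Il27, 3 regions beyond 1 end of the gene were found more often after stimulation, and the number of peaks per library was 4.58 ± 1.17 in stimulated and 2.33 ± 0.492 in unstimulated macrophages (SD, n = 12 each). The Il12a call over the second start and the Il27 calls were not made with peaks of a −log10 q-value of at least 5 alone. No region of the 5 genes separated diabetic from control macrophages by the test of detection in either state. That test could be run on 2 member regions in the unstimulated and 3 in the stimulated state, and not on regions found in all 24 libraries.

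The lists of stimulated libraries held 41385 to 58016 peaks, against 49837 to 61861 in unstimulated libraries, and the labels give no batch. Of 9 macrophage marker genes, 8 had a peak in all 24 libraries, with 29 to 48 summed peaks in stimulated and 41 to 52 in unstimulated libraries. Of 6 dendritic cell markers, 4 had a peak in all 24 (12 to 23 summed peaks in stimulated and 15 to 22 in unstimulated libraries). Of 7 T and NK cell markers, 2 did (3 to 10 against 5 to 12) and 3 had no peak at all. None of 5 B cell markers did (0 to 5 against 2 to 5), and 1 of 6 neutrophil markers did (1 to 4 against 3 to 5). By Fisher's exact test of detection (adjusted p below 0.05, more or fewer stimulated libraries), 0 regions were gained and 6 lost of 19 tested at macrophage markers, 1 and 2 of 10 at dendritic cell markers, 0 and 1 of 5 at T and NK cell markers, 0 and 0 of 4 at B cell markers, and 0 and 1 of 2 at neutrophil markers (9.19% gained and 18.9% lost of all tested regions). The part of list length and of cell makeup in the results was not tested.

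The windows of 250 bases before the annotated starts are shown because peaks at the starts differed between members: the second Il12a start gained a peak, the Il12b start had a peak in a single library, and the Ebi3 start was covered in every library. The sequences are from RefSeq (GRCm38.p6, the assembly of mm10), plus strand, 5′ to 3′. Capitals mark matches to the letters GAGGAA on either strand, a core of sites of PU.1, the factor that specifies myeloid cells.
Il12a, second start, chr3:68691174-68691423: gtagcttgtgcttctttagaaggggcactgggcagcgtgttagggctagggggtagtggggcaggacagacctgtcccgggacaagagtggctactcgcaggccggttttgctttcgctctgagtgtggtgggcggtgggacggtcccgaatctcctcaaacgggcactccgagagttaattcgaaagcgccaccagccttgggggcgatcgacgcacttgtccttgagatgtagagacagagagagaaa
Il12b, chr11:44399813-44400062: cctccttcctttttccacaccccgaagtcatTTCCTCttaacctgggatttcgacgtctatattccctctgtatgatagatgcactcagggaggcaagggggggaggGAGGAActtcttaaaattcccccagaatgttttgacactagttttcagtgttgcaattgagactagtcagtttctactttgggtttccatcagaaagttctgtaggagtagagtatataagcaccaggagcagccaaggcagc
Ebi3, chr17:55952373-55952622: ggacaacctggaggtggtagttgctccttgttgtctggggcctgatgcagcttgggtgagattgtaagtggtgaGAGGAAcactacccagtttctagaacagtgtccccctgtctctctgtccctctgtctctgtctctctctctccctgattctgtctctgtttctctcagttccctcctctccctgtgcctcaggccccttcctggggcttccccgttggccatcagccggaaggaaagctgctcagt

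The Il12b window held 2 such matches, at bases 219 to 214 (on the minus strand) and 143 to 138 before the start, and the Ebi3 window held 1, at bases 176 to 171. The Il12a windows held none, although the same letters occurred in 23.3% of all 32851 windows of this length. Searches on both strands for the other core sequences gave no match in these windows. These were NF-κB (GGGA and TTCC separated by any 2 bases, in 1.21% of all windows), an interferon-stimulated response element (GAAA and GAAA separated by any 2 bases, 2.98%) and a STAT element (TTC and GAA separated by any 3 bases, 7.02%). The same held for AP-1 (TGANTCA, 6.75%), C/EBP (TTGC and AA separated by any 2 bases, 9.56%) and a TATA box (TATAAA, 12.4%). A missing match says only that these letters do not occur in the window. The GC content was 58.4% before the second Il12a start, 50.8% before its first start, 46.0% at Il12b and 56.0% at Ebi3, against a median of 52.4% over all windows. Promoter windows of 3 of the 5 genes were matched; Il23a and Il27 had no entry.

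The region counts are read against the whole series. Among 31219 regions tested for stimulation with phenotypes pooled, 2868 (9.19%) were gained and 5901 (18.9%) were lost, where gained means found in more stimulated libraries at an adjusted p below 0.05 (two-sided Fisher's exact test with Benjamini-Hochberg adjustment). Of the 28 member regions, 13 were found in a number of libraries that could give an unadjusted p below 0.05 and were therefore tested. Of these, 6 were gained and 1 was lost: 1 gained and 1 lost at Il12b, 2 gained at Il12a and 3 gained at Il27. The same 7 regions had an unadjusted p below 0.05, a level reached by 39.5% of all tested regions. Where no peak was called, accessibility was below the caller's threshold and need not have been absent. The test treats the 24 libraries as independent, although both states share their mice.

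**Figure D1:**
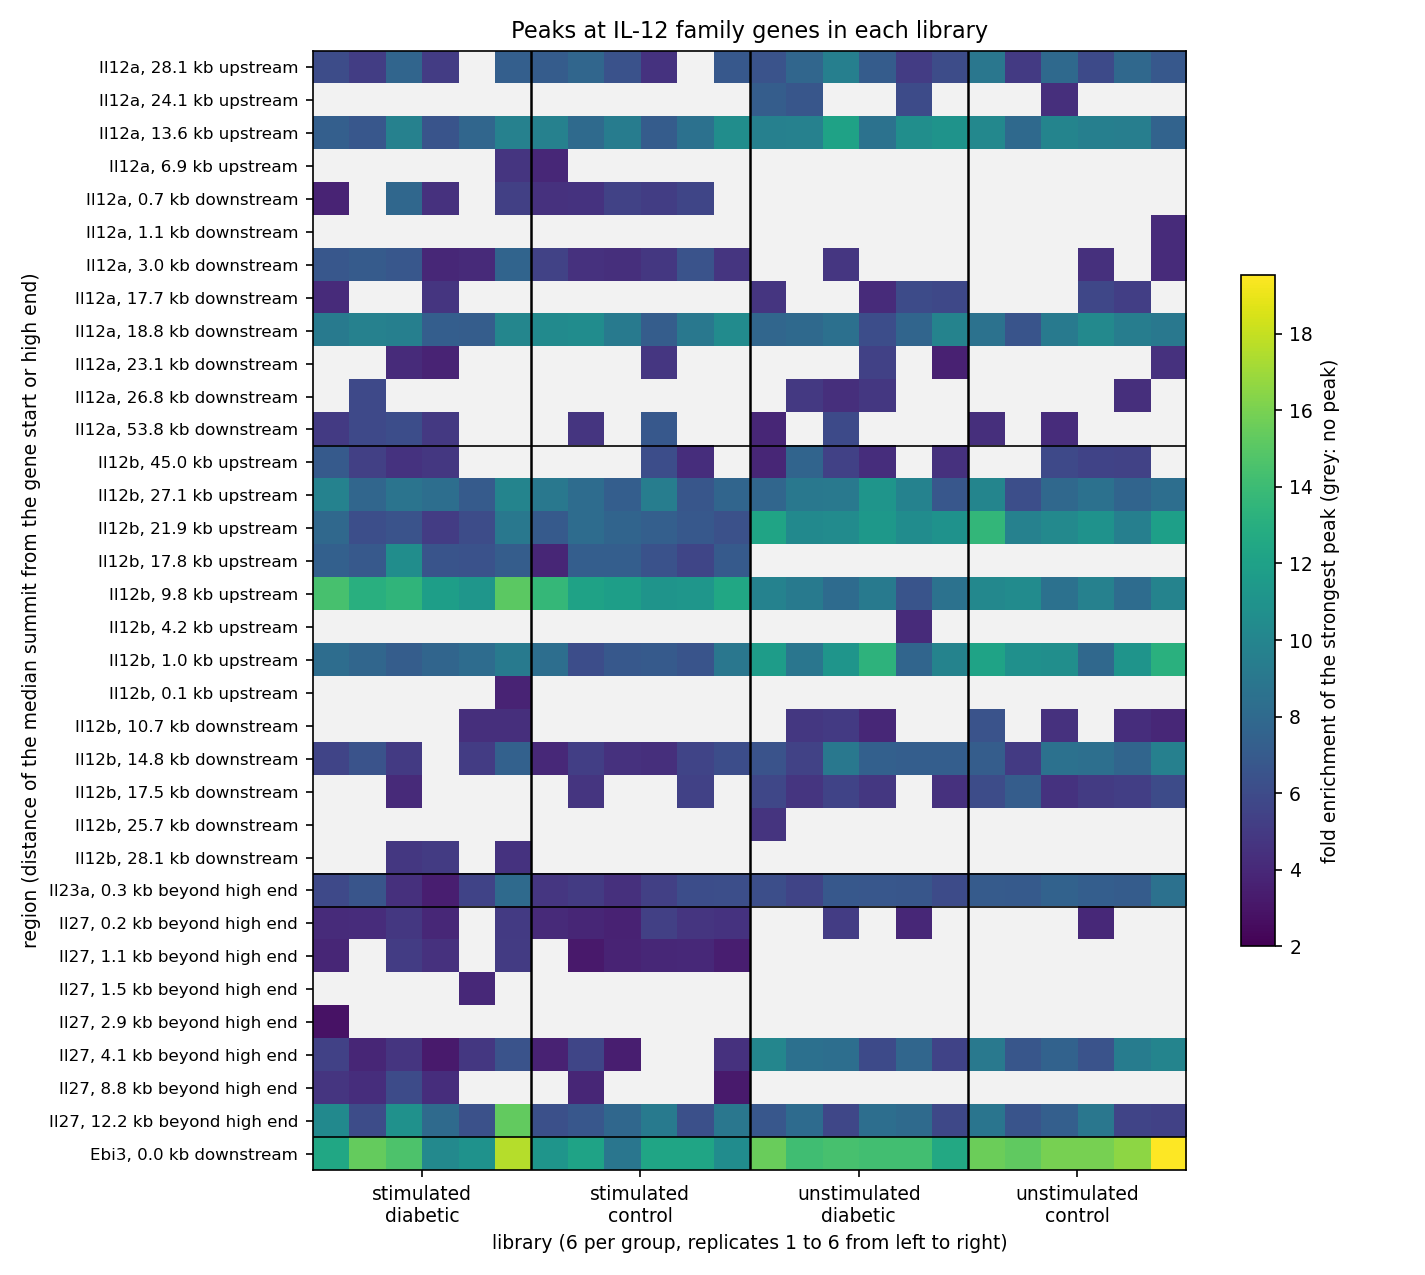
Each row is a region (distance in kb from the gene start, or from the high-coordinate end for Il23a and Il27, given on the y axis) and each column a library of the group named on the x axis; colour gives the authors' fold enrichment of the strongest peak and grey marks no peak. The Il12b row 17.8 kb upstream is filled in all 12 stimulated columns and empty in all 12 unstimulated columns, whereas the Il23a and Ebi3 rows are filled in all 24.

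Il12b encodes p40, the subunit shared by IL-12 and IL-23, and an inducible enhancer upstream of it has been described in mouse macrophages. The position of that enhancer was not compared with the regions found here. The gene lies on chromosome 11 from 44400063 to 44414677 (mm10, plus strand), with its nearest protein-coding neighbours 498813 bp (Adra1b) and 39894 bp (Ublcp1) away. It had 13 regions, of which 10 were found in at least 2 libraries and 4 in all 24. The gained region 17.8 kb upstream (44382099 to 44382610, between genes) was found in 6 of 6 stimulated diabetic, 6 of 6 stimulated control, 0 of 6 unstimulated diabetic and 0 of 6 unstimulated control libraries. Its adjusted p was 6.17e-05 with phenotypes pooled, 0.0243 in diabetic and 0.0173 in control macrophages (Fisher's exact test). Both phenotypes thus showed complete separation by state at this region. In the series, 233 regions had this pattern of 12 against 0. Its fold enrichment, the authors' measure of peak height over local background, was 6.44, 7.01 and 10.6 (lowest, median and highest) in stimulated diabetic and 3.91, 6.67 and 7.25 in stimulated control libraries.

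The lost region at Il12b lay 17.5 kb downstream of the start, outside the gene (44417420 to 44417791). It was found in 1 stimulated diabetic, 2 stimulated control, 5 unstimulated diabetic and 6 unstimulated control libraries (adjusted p = 0.0184, Fisher's exact test, phenotypes pooled). Where each list was shortened to its 41385 strongest peaks, the loss did not pass (adjusted p = 0.196). A region 28.1 kb downstream (44428014 to 44428308) was found in 3 stimulated diabetic libraries and in none of the other 3 groups. The smallest unadjusted p of any member region between diabetic and control macrophages belonged to it (p = 0.182 in the stimulated state, Fisher's exact test), and 3 detections are too few to pass. Of the other Il12b regions, 3 were found in several but not all libraries and lay 45.0 kb upstream (6 stimulated and 8 unstimulated libraries), 10.7 kb downstream inside the gene (2 and 7) and 14.8 kb downstream at its far end (11 and 12), and none was called. A peak that overlapped 146 bases of the printed Il12b window was found in 1 stimulated diabetic library only. Peaks 4.2 kb upstream and 25.7 kb downstream were each found in 1 unstimulated diabetic library.

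The remaining 4 Il12b regions, 27.1, 21.9, 9.8 and 1.0 kb upstream, were found in all 24 libraries, so detection could not tell the groups apart. For such regions the position of the peak in its list was compared, as a percentile by −log10 q-value among the 41385 strongest peaks of each library (100 is the strongest). The region 9.8 kb upstream (44389849 to 44390655) had percentiles of 88.4, 95.0 and 96.5 (lowest, median and highest) in stimulated diabetic and 89.5, 93.4 and 98.3 in stimulated control libraries. The values were 29.5, 50.2 and 58.8 in unstimulated diabetic and 42.5, 54.6 and 66.1 in unstimulated control libraries. Every stimulated library thus lay above every unstimulated one, with a difference of 42.5 percentile points between the medians. Of 18999 regions found in all 24 shortened lists, 0.621% lay higher in stimulated libraries without overlap and 0.832% lay lower, and the median difference over all of them was 0.2 points. Its strongest peak was 611 to 778 bp wide (median 699 bp) in stimulated and 471 to 594 bp (median 545.5 bp) in unstimulated libraries, again without overlap, a pattern of wider peaks seen in 0.264% of 22770 regions found in all full lists (narrower in 0.149%). Over those regions, the median of the median widths was 448.5 bp in stimulated and 450.0 bp in unstimulated libraries.

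The region 27.1 kb upstream (44372223 to 44373298) also ranked higher after stimulation, but the groups overlapped, with percentiles of 63.8, 77.6 and 85.5 in stimulated and 26.1, 44.1 and 68.5 in unstimulated libraries. Its strongest peak was 348 to 1049 bp wide in stimulated and 276 to 416 bp in unstimulated libraries. When peaks were joined only where summits lay within 150 bp, this region divided into a part at 27.1 kb, found in 11 stimulated and 12 unstimulated libraries, and a part at 27.7 kb (summits from 44372311 to 44372487). The part at 27.7 kb was found in 3 stimulated diabetic and 5 stimulated control libraries and in 0 unstimulated ones (adjusted p = 0.0114, Fisher's exact test). Under that definition, 6.65% of 36444 tested regions were gained and 12.9% were lost. The regions 21.9 kb upstream (44377933 to 44378348) and 1.0 kb upstream (44398443 to 44399364) had median percentiles of 63.4 and 66.7 in stimulated and 70.3 and 71.8 in unstimulated libraries, with wide overlap. The folds at 21.9 kb were 5.09 to 8.99 in stimulated and 9.58 to 13.6 in unstimulated libraries, although the ranks overlapped. The share of all regions whose folds lie apart in this way was not counted, and folds are not comparable between libraries of unknown depth. By detection or rank, the states thus separated without overlap 17.8 and 9.8 kb upstream of Il12b, and overlapped at the regions 27.1, 21.9 and 1.0 kb upstream.

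**Figure D2:**
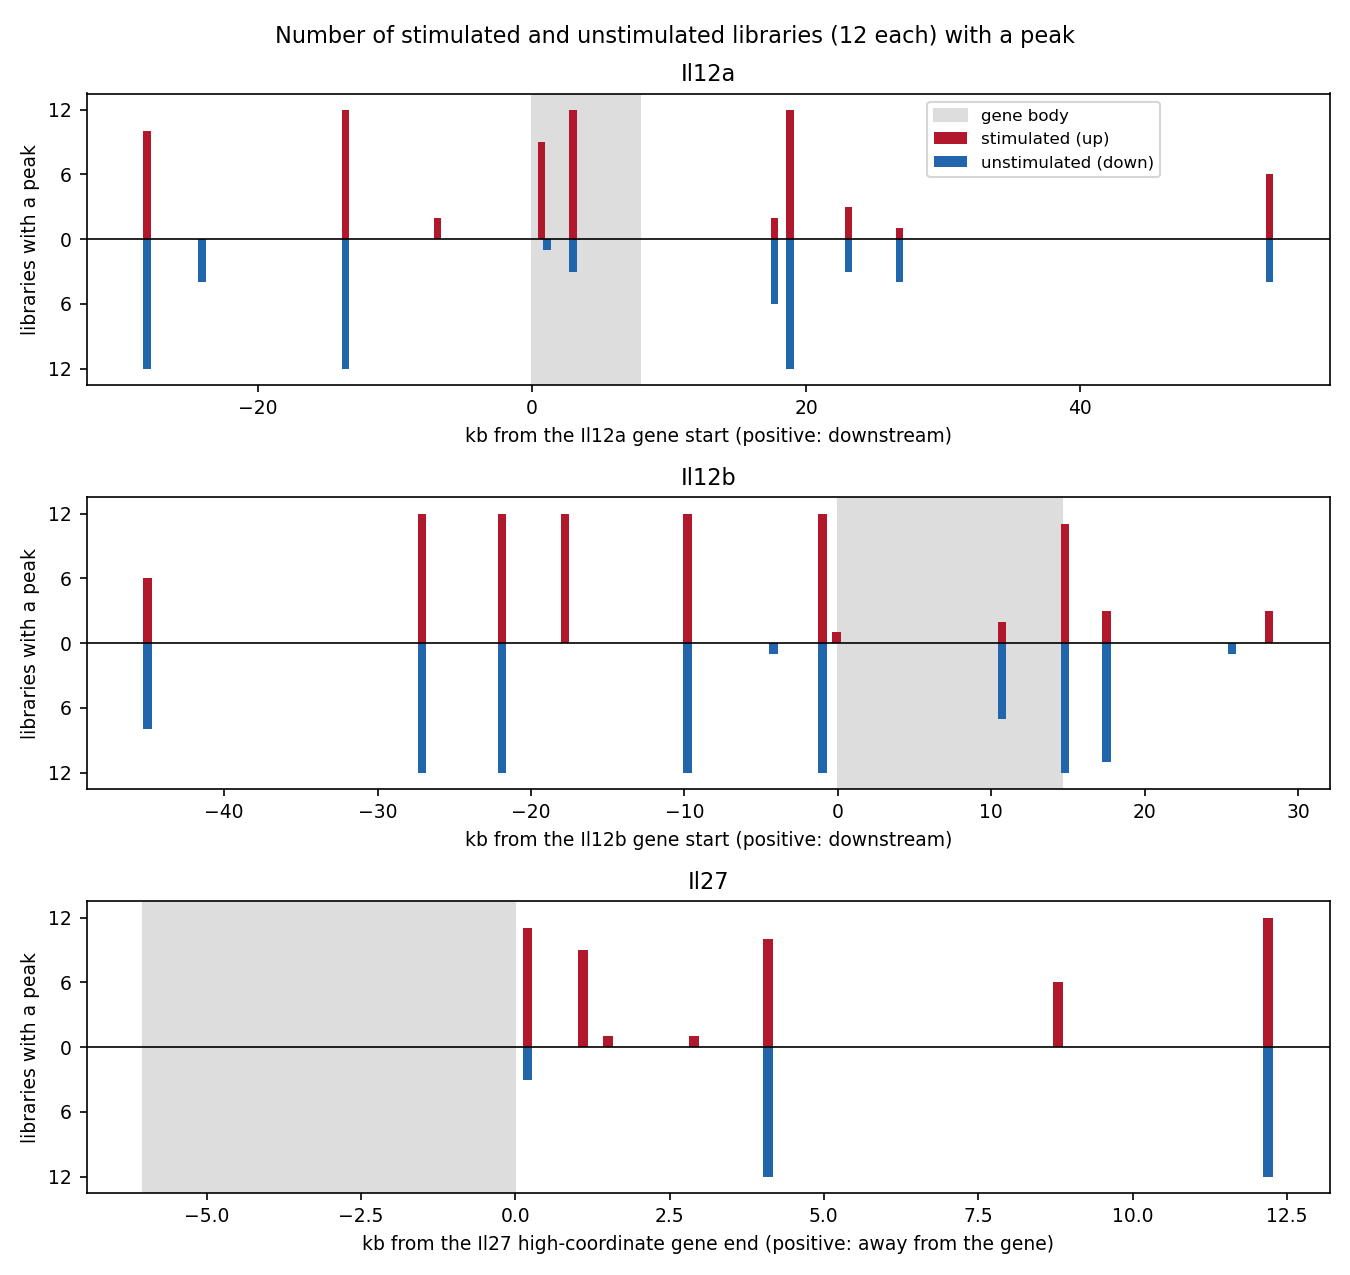
For Il12a, Il12b and Il27, bars above the line give the number of stimulated libraries with a peak (of 12) and bars below it the number of unstimulated libraries (of 12), against distance in kb; the grey band is the gene body. Among called regions, bars without a counterpart on the other side stand 17.8 kb upstream of Il12b (12 and 0). Others stand 0.7 kb downstream of the first Il12a start (9 and 0) and 1.1 and 8.8 kb beyond the Il27 end (9 and 0, 6 and 0). Some regions without a call also have a bar on 1 side only, such as 28.1 kb downstream of the Il12b start (3 and 0) and 24.1 kb upstream of Il12a (0 and 4).

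Il12a encodes p35, the subunit that is specific to IL-12 among the cytokines that contain p40. It lies on chromosome 3 from 68690644 to 68698550 (plus strand), with annotated starts at 68690644 and 68691424. It had 12 regions, of which 11 were found in at least 2 libraries and 2 in all 24, and both gained regions lay inside the gene. The region 0.7 kb downstream of the first start (68691067 to 68691546) covered the whole printed window before the second start. It was found in 4 stimulated diabetic, 5 stimulated control, 0 unstimulated diabetic and 0 unstimulated control libraries (adjusted p = 0.00388, Fisher's exact test, phenotypes pooled). Within control macrophages the adjusted p was 0.0422, whereas 4 against 0 in diabetic macrophages cannot pass (unadjusted p = 0.0606, Fisher's exact test). With a minimum −log10 q-value of 5, the pooled comparison did not call this region (adjusted p = 0.0882, Fisher's exact test). Its fold enrichment was 3.78, 4.91 and 7.84 in stimulated diabetic and 4.53, 5.17 and 5.64 in stimulated control libraries. The window before the first start overlapped no region in any library.

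The second gained region lay 3.0 kb downstream of the start (68693477 to 68693918). It was found in 6 stimulated diabetic and 6 stimulated control libraries, against 1 unstimulated diabetic and 2 unstimulated control libraries (adjusted p = 0.00388, Fisher's exact test). Within diabetic macrophages, 6 against 1 gave an adjusted p of 0.0559, and within control macrophages, 6 against 2 could not pass (unadjusted p = 0.0606, Fisher's exact test). Its fold enrichment was 3.92, 6.74 and 7.64 in stimulated diabetic, 4.38, 4.77 and 6.46 in stimulated control, and 4.16, 4.42 and 4.75 in the 3 unstimulated libraries with a peak. The region was thus present in every stimulated library and in a minority of unstimulated ones.

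Outside Il12a, the regions 13.6 kb upstream (68676752 to 68677444) and 18.8 kb downstream (68709185 to 68710025) were found in all 24 libraries. The downstream region ranked higher after stimulation, with percentiles of 63.4, 79.3 and 91.5 in stimulated and 30.7, 54.4 and 76.8 in unstimulated libraries, but the groups overlapped. The upstream region had median percentiles of 56.6 in stimulated and 59.5 in unstimulated libraries. By group, the medians were 50.1 in stimulated and 64.7 in unstimulated diabetic libraries, and 69.6 in stimulated and 59.5 in unstimulated control libraries. The medians thus moved in opposite directions in the phenotypes, but the ranges overlapped and this was not tested. A region 24.1 kb upstream (68666459 to 68666715) was found in 0 stimulated libraries, 3 unstimulated diabetic and 1 unstimulated control libraries, without a call. The regions 6.9 kb upstream (2 stimulated and 0 unstimulated libraries) and 17.7 (2 and 6), 23.1 (3 and 3), 26.8 (1 and 4) and 53.8 kb (6 and 4) downstream varied from library to library, and none was called. The region 28.1 kb upstream was found in 10 stimulated and 12 unstimulated libraries, and a peak 1.1 kb downstream of the start in 1 unstimulated control library.

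**Figure D3:**
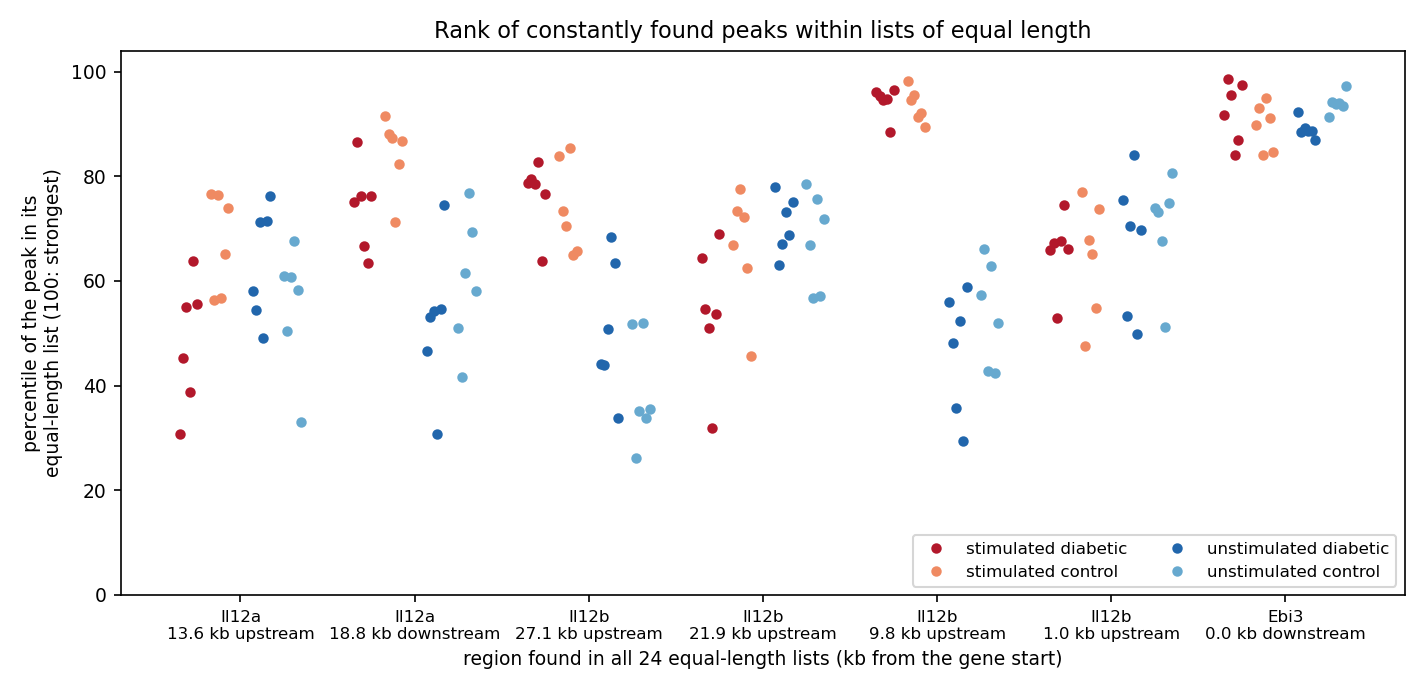
Points are libraries, the y axis is the percentile of the peak by −log10 q-value among the 41385 strongest peaks of its library, and the x axis names the 7 member regions found in all 24 shortened lists. At Il12b 9.8 kb upstream every stimulated point (88.4 to 98.3) lies above every unstimulated point (29.5 to 66.1), and at the other 6 regions the states overlap.

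Il27 encodes p28, the alpha subunit of IL-27. It lies on chromosome 7 from 126589009 to 126595035, close to Cln3 (3192 bp) and overlapping Apobr, and the annotation used gives no strand for it, so distances are from its high-coordinate end. It had 7 regions, all on that side, of which 5 were found in at least 2 libraries. The peaks at 1.5 and 2.9 kb were each found in 1 stimulated diabetic library. All 3 regions that could be tested were gained, and with a minimum −log10 q-value of 5 none of the 3 was called (adjusted p = 0.0806 at 0.2 kb and 0.0882 at 1.1 kb, Fisher's exact test). The region at 0.2 kb, which spans the gene end (126594789 to 126595458), was found in 5 stimulated diabetic, 6 stimulated control, 2 unstimulated diabetic and 1 unstimulated control libraries (adjusted p = 0.0184, Fisher's exact test). The region at 1.1 kb (126595862 to 126596267) was found in 4 stimulated diabetic, 5 stimulated control and 0 unstimulated libraries (adjusted p = 0.00388, Fisher's exact test). The region at 8.8 kb (126603526 to 126603981) was found in 4 stimulated diabetic, 2 stimulated control and 0 unstimulated libraries, at an adjusted p of 0.0489 that did not pass when stimulated control replicate 2 or any of the 12 unstimulated libraries was left out (Fisher's exact test). The folds of these peaks were low, from 3.22 to 5.99 over stimulated libraries.

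Within control macrophages, the Il27 regions at 0.2 and 1.1 kb passed (adjusted p = 0.0422 for both, Fisher's exact test), and in diabetic macrophages none did. At 0.2 kb, the diabetic counts of 5 against 2 gave an unadjusted p of 0.242 (Fisher's exact test). The 2 regions found in nearly all libraries lay at 4.1 kb (126598983 to 126599537; 10 stimulated and 12 unstimulated libraries) and at 12.2 kb (126606788 to 126607436; all 24 libraries). At 4.1 kb the fold enrichment was 3.26, 4.80 and 6.51 in stimulated diabetic, 3.49, 4.10 and 5.65 in stimulated control, 5.5, 8.06 and 10.1 in unstimulated diabetic and 6.46, 8.29 and 9.94 in unstimulated control libraries. Folds describe peaks within a library and were not tested between libraries. By rank the states overlapped, with percentiles of 3.2 to 60.3 in the 9 stimulated and 19.8 to 71.4 in the 12 unstimulated shortened lists that held the peak.

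Il23a, which encodes p19 of IL-23, lies on chromosome 10 from 128296140 to 128298084, between Stat2 (3287 bp away) and Pan2 (5249 bp away). Its single region spans the high-coordinate end of the gene (128298065 to 128298733) and was found in all 24 libraries. The fold enrichment was 3.48, 5.72 and 8.08 in stimulated diabetic and 4.46, 5.17 and 6.23 in stimulated control libraries, against 5.60, 6.45 and 6.83 in unstimulated diabetic and 6.96, 7.20 and 8.54 in unstimulated control libraries. By rank the states overlapped, with percentiles of 26.6 to 59.9 in the 10 stimulated and 23.4 to 60.1 in the 12 unstimulated shortened lists that held the peak. In the unstimulated state the folds of the phenotypes did not overlap. The unstimulated percentiles were 23.4 to 46.0 in diabetic and 45.8 to 60.1 in control libraries. After stimulation they were 39.5 to 59.9 in 4 diabetic and 26.6 to 53.8 in 6 control libraries. These differences between phenotypes were not tested. Ebi3, the beta subunit of IL-27, lies on chromosome 17 from 55952623 to 55957022 (plus strand) and overlaps Zfp119b. Its single region covers the start (55952094 to 55952939) and was found in all 24 libraries, with percentiles of 84.0, 91.4 and 98.6 in stimulated and 86.9, 91.8 and 97.3 in unstimulated libraries. Its strongest peak was 405 to 805 bp wide (median 631 bp) in stimulated and 394 to 544 bp (median 423.5 bp) in unstimulated libraries. With joining by summits within 150 bp, a part 0.4 kb upstream was found in 4 stimulated and 0 unstimulated libraries, too few to pass. Of the 28 peaks in the region, 22 were assigned to Ebi3. The strongest peak of the region was among the strongest of each list in both states. Its summit lay nearest to another gene in replicate 5 of the stimulated diabetic group and in replicate 5 of the unstimulated diabetic group. Both libraries therefore count 0 peaks for Ebi3, and their titles do not say that they share a mouse.

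The number of peaks per gene and library sums these changes. Il27 had 3, 5.5 and 6 peaks (lowest, median and highest) in stimulated diabetic and 3, 4 and 5 in stimulated control libraries, against 2, 2 and 3 in both unstimulated groups. The mean was 2.25 peaks higher after stimulation (two-sided permutation test with 100000 resamples, p = 3e-05; adjusted p = 0.00327 over the 16921 genes with a peak). With a minimum −log10 q-value of 5 the difference was 0.917 and did not pass (adjusted p = 0.336, permutation test). Among all those genes, 310 (1.83%) had more peaks after stimulation and 1095 (6.47%) had fewer at an adjusted p below 0.05. The lowest stimulated value, 3, also occurred in unstimulated libraries. Within diabetic macrophages the difference was 2.83 peaks and within control macrophages 1.67 peaks (two-sided exact permutation tests, p = 0.00649 and 0.0130), and neither passed adjustment (adjusted p = 0.425 and 0.192), as was the case for all genes (0.0%) with 6 libraries a group.

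Il12a had 5.83 ± 1.34 peaks per library in stimulated and 5.08 ± 0.900 in unstimulated macrophages (SD, n = 12 each), a difference of 0.75 that did not pass (adjusted p = 0.541, permutation test). Counting only peaks within 10 kb, the Il12a difference was 1.25 and passed (adjusted p = 0.0338, permutation test). Il12b had 8.0 ± 1.04 peaks in stimulated and 7.33 ± 0.778 in unstimulated macrophages (SD, n = 12 each; adjusted p = 0.480, permutation test), and within 10 kb its difference turned to -0.917 (adjusted p = 0.108). Il23a had 1 peak in each library except 1 stimulated diabetic and 1 stimulated control library with 2, and Ebi3 averaged 0.917 in both states. Over all 5 genes, a library held 16, 22.5 and 25 peaks (lowest, median and highest) in stimulated diabetic, 18, 19 and 21 in stimulated control, 15, 17.5 and 19 in unstimulated diabetic and 13, 17 and 18 in unstimulated control macrophages. The order of the genes by mean peaks per library was Il12b, Il12a, Il27, Il23a and Ebi3 in both states, where Il23a and Ebi3 did not differ beyond their spread. After stimulation, the ranges of Il12b (6 to 10 peaks), Il12a (4 to 8) and Il27 (3 to 6) overlapped from each gene to the next. In unstimulated libraries the ranges of these genes (6 to 8, 3 to 6 and 2 to 3) met at their ends. The span that can hold peaks differs between the genes, because their neighbours lie at different distances.

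**Figure D4:**
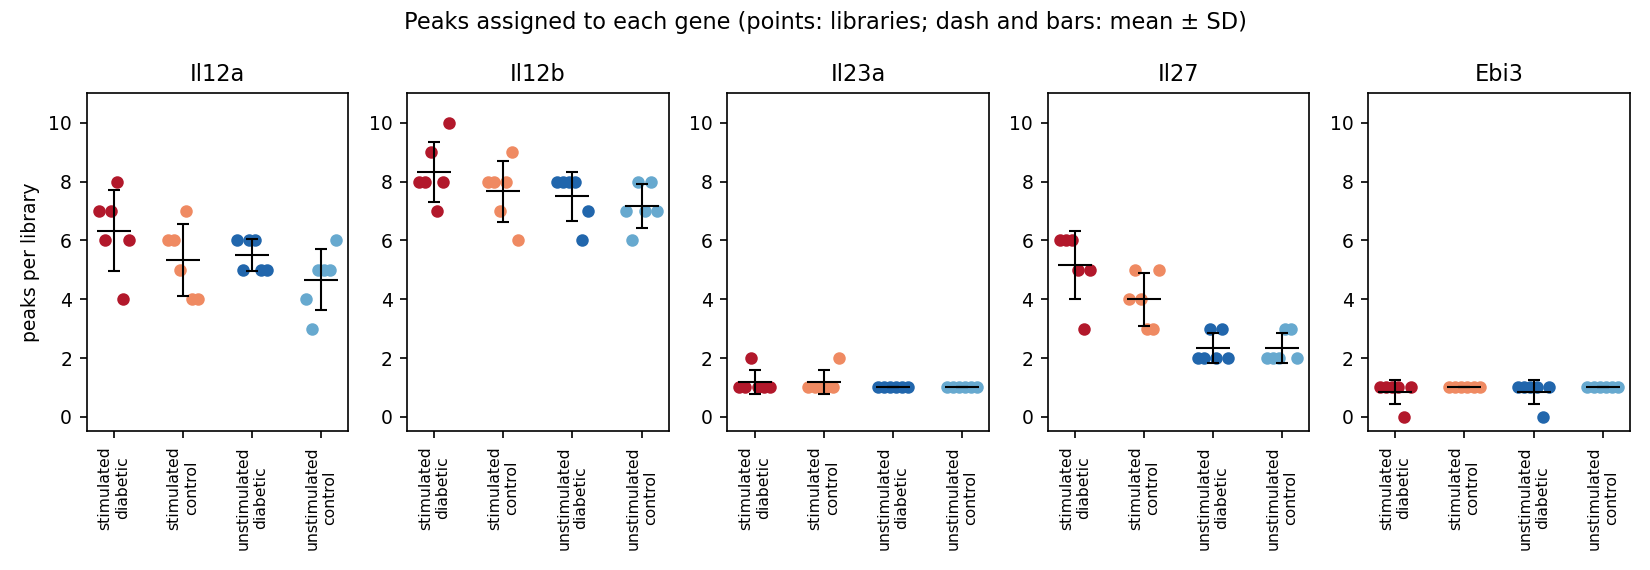
Points are the peaks assigned to each gene in each library (y axis) for the 4 groups on the x axis; the dash and bars are the mean ± SD of 6 libraries. Il27 has 3 to 6 peaks in stimulated and 2 to 3 in unstimulated libraries, and Il23a and Ebi3 stay between 0 and 2.

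The study also asked how diabetes affects the macrophages. Between diabetic and control mice, 2 member regions could be tested in the unstimulated and 3 in the stimulated state, and 0 were called in either (Fisher's exact test). This was also true of all 8788 and 9681 regions tested in the series (0.0%), where 137 (1.56%) and 292 (3.02%) had an unadjusted p below 0.05, against 0 member regions. The difference in response between phenotypes was tested with Zelen's exact test, which called 0 of 3 member regions and 0.0% of 9353 regions, with 229 (2.45%) and 0 member regions at an unadjusted p below 0.05. Each of these 3 member regions had p = 1.0 by this exact test. The Il12b region 10.7 kb downstream, whose number of detections could not pass (p = 0.351, Zelen's exact test), was found in 2 stimulated diabetic, 0 stimulated control, 3 unstimulated diabetic and 4 unstimulated control libraries. With 6 libraries a group, the smallest p the Fisher test allows is 0.00216, so these results do not show that the phenotypes act alike. Regions found in all 24 libraries could not be tested by detection. At the 7 member regions found in all shortened lists, the percentiles of the phenotypes overlapped in both states, without a test. The Ebi3 percentiles were 86.9 to 92.2 in unstimulated diabetic and 91.3 to 97.3 in unstimulated control libraries. After stimulation they were 84.1 to 98.6 and 84.0 to 94.9. In stimulated macrophages Il27 had 1.17 more peaks per library in diabetic than in control mice (exact permutation test, p = 0.141; adjusted p = 1.0).

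Stimulation within each phenotype gave counts that differ between them, but the adjustment differs too. An unadjusted p of 0.01515 became 0.0422 and a call in control macrophages (Il12a region at 0.7 kb, Fisher's exact test). In diabetic macrophages it became 0.0559 without a call (Il12a region at 3.0 kb, Fisher's exact test). At the Il12a region at 0.7 kb and the Il27 region at 1.1 kb, 5 against 0 passed in control macrophages. In diabetic macrophages, 4 against 0 could not pass. In diabetic macrophages, 7 member regions were tested and 1 was gained, against 5.47% gained and 3.44% lost of 11708 regions; 2 member regions and 27.1% of all had an unadjusted p below 0.05. In control macrophages, 5 member regions were tested and 4 were gained, against 8.41% gained and 27.5% lost of 12111 regions; 4 member regions and 35.9% of all had an unadjusted p below 0.05. The member regions called within either phenotype were the Il12b region 17.8 kb upstream in both, and the Il12a region at 0.7 kb and the Il27 regions at 0.2 and 1.1 kb in control macrophages. The 4 gains were 1 without replicate 2, 3 or 4 of the stimulated or replicate 1, 3, 5 or 6 of the unstimulated control group, and 2 without stimulated control replicate 1 or unstimulated control replicate 4. Adjustment over all regions of the series left 0 gains in diabetic and 0 in control macrophages, and a minimum −log10 q-value of 5 left 1 in control macrophages. The test of the difference in response could not call any of these regions, because their numbers of detections could not pass.

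Genes of the wider pathway were described by the same region test with phenotypes pooled. Of 103 tested regions at 39 genes, 19 were gained and 19 were lost (18.5% each), against 9.19% and 18.9% of all tested regions. At the 5 receptor genes, 0 of 10 tested regions were gained and 5 were lost. Il6st, the gp130 chain shared by the IL-27 receptor and other receptors, had 2 losses, of which the leading region was found in 1 stimulated library and 12 unstimulated ones (adjusted p = 0.000303, Fisher's exact test). Il23r, the specific chain of the IL-23 receptor, had 2 losses and Il12rb2, the signalling chain of the IL-12 receptor, had 1, each led by a region found in 0 stimulated libraries and 8 unstimulated ones (adjusted p = 0.0101, Fisher's exact test). The receptor genes Il12rb1 and Il27ra had no call.

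At the 6 signal transducer genes, 5 of 23 tested regions were gained and 2 were lost. Stat4, which transmits IL-12 signals in T and NK cells, gained a region found in 12 stimulated libraries and 2 unstimulated ones (adjusted p = 0.00128, Fisher's exact test), and the kinase gene Jak2 gained 2, led by a region found in 8 and 0 (adjusted p = 0.0101, Fisher's exact test). The kinase gene Jak1 had 1 gain and 2 losses, and Tyk2 and Stat3 had no call. At the 21 genes of factors known to act on these cytokine genes, 12 of 64 tested regions were gained and 11 were lost. Nfkb1, an NF-κB subunit, had 5 gains and 2 losses, and Irf8, a myeloid interferon regulatory factor, had 2 of each. Bcl6, a transcriptional repressor, had 2 gains and no loss, and Batf3, a factor of dendritic cell development, had 2 losses and no gain. Rel, the c-Rel subunit of NF-κB, and Irf1, another interferon regulatory factor, each had 1 gain and 2 losses.

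Of 7 target genes in T and NK cells, 3 had a peak in all 24 libraries. Il22 had no peak, and Il17a and Il17f had a peak in 1 library each. Ifng, which encodes the IFNγ that IL-12 induces, had 1 gain and 1 loss among 3 tested regions, the gain being found in 9 stimulated libraries and 0 unstimulated ones (adjusted p = 0.00388, Fisher's exact test). Il18, a macrophage cytokine that acts together with IL-12, had 1 gain, found in 11 and 3 libraries (adjusted p = 0.0184, Fisher's exact test).

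The genes whose numbers of peaks per library followed each member most closely over the 24 libraries were named by Pearson's r, as a description in which all genes share library and depth. For Il27 these were Ccr9 (r = 0.88), Ubl5 (0.86) and Car1 (0.86). For Il12b they were Ccdc50 (r = 0.74), Fam149a (0.72) and Pdpn (0.71), and for Il12a Tmem167 (r = 0.69), Cryba2 (0.69) and Smco2 (0.68). For Ebi3 they were Ltn1 (r = 0.82), Gm52420 (0.80) and Ifnb1 (0.70). Il23a varied in only 2 libraries, so the r of 1.0 with Gm30191, Srsf9 and Xpo7 rests on those 2. Ccr9 averaged 3.58 peaks in stimulated and 1.42 in unstimulated libraries, against 4.58 and 2.33 for Il27.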

How the data were processed

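The authors deposited a narrowPeak list for each library, called separately. Tools named in the submitters' processing notes are MACS2 2.1.1, a peak caller, Bowtie2 2.2.6, an aligner, FastQC 0.11.3, Trim Galore, edgeR and DiffBind 2.4.8; the build is mm10. Settings, and any shift of reads for Tn5, were not given in the sources used here. Per the labels' protocols, 50000 cells per replicate were used and single reads of 50 bp were sequenced. The deposited values per peak are a score, a fold enrichment and −log10 p-values and q-values. In 99.99% of peaks the deposited score equalled 10 times the −log10 q-value, rounded down. The smallest deposited −log10 q-value was 1.302. Read totals are not given, so depth is unknown beyond the length of each list.

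Peaks were assigned by summit to the nearest RefSeq protein-coding gene body (GRCm38.p6) within 50 kb. Peaks overlapping by at least 1 bp were merged, and regions present in 2 or more libraries were tested for detection with two-sided Fisher's exact tests (SciPy 1.17.1), adjusted by Benjamini-Hochberg over regions able to reach an unadjusted p of 0.05. Zelen's exact test compared responses, and permutation tests compared peaks per gene. The tests were run on simulated data with libraries drawn independently, which does not mimic shared mice or lists of unlike length. All 5 genes and all their regions are accounted for; pathway and marker genes come from fixed lists, of which some single genes are not reported here. The members and lists were chosen with earlier results of these data known. Alternatives were lists of equal length, a minimum −log10 q-value of 5, joining by summits within 150 bp, adjustment over all regions, a distance of 10 kb, the replicate number as a block, and leaving out each library. Replicate numbers come from the titles, which do not say that a number marks a mouse, so comparisons were unpaired. The table gives no exons or introns, and no strand for Il23a and Il27. Peak sequences were not used here.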

Additional observations from a re-analysis of the deposited data

Results flagged for a closer look

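In 10 of 92 groups of 6 libraries, 1 library stood apart from the others by Dixon's criterion. For continuous values chance meets this criterion in about 1 of 20 groups, but some groups here are small peak counts. Where all counts but 1 are equal, that library is always flagged, as at Il23a and Ebi3. Groups without spread cannot be flagged, so the 10 of 92 cannot be set against this rate. Replicate 5 of the stimulated diabetic group held 16 peaks at the 5 genes, against 22 to 25 in the other libraries of that group. It also held 3 peaks at Il27 (5 to 6 in the others) and 0 at Ebi3 (1 in the others). In the same library the Il12b regions had percentiles of 63.8 at 27.1 kb upstream (76.6 to 82.7 in the others) and 88.4 at 9.8 kb upstream (94.6 to 96.5 in the others). Its list of 46503 peaks was the shortest of its group. Without it, 6 regions were gained and 1 was lost with phenotypes pooled, as with it. Replicate 5 of the unstimulated diabetic group also held 0 peaks at Ebi3, against 1 in the others. Replicate 3 of the stimulated diabetic group and replicate 6 of the stimulated control group each held 2 peaks at Il23a, against 1 in the others. In replicate 6 of the unstimulated control group, the Il23a peak had a fold of 8.54 (6.96 to 7.5 in the others) and the Ebi3 peak a fold of 19.54 (15.27 to 16.54 in the others).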

How the results depend on the processing

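Phenotypes pooled, 6 member regions were gained and 1 was lost. Lists of equal length gave 0 losses, and 2 gains instead of 1 in diabetic macrophages. A minimum −log10 q-value of 5 left 2 gains and 0 losses pooled and 1 of 4 gains in control macrophages. Adjustment over all regions left 0 gains in diabetic and 0 in control macrophages, and a distance of 10 kb left 0 gains in diabetic macrophages, since it leaves out the Il12b region 17.8 kb upstream. Leaving out each library in turn gave 5 to 6 gains and 1 loss pooled, 1 to 4 gains and 0 to 1 losses in control, and 1 to 2 gains and 0 losses in diabetic macrophages. The control gains were 1 or 2 without replicates 1, 2, 3 or 4 of the stimulated or 1, 3, 4, 5 or 6 of the unstimulated control group. A control loss appeared without replicate 5 of the stimulated or replicate 2 of the unstimulated control group, and the second diabetic gain without replicate 3 of the unstimulated diabetic group. Comparisons of diabetic with control macrophages gave 0 calls under every alternative run.

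With phenotypes pooled, the Il12b region 17.8 kb upstream passed under every alternative that kept it (adjusted p at most 0.0188), as did the Il12a region at 3.0 kb (at most 0.0442, Fisher's exact test). The Il12a region at 0.7 kb and the Il27 region at 1.1 kb missed the threshold with a minimum −log10 q-value of 5 (adjusted p = 0.0882). The Il27 region at 8.8 kb was called in 11 of 24 leave-outs and missed with summit joining (0.054) and adjustment over all regions (0.126), and equal-length lists gave no call. The Il12b loss and the Il27 region at 0.2 kb missed with a minimum −log10 q-value of 5 (adjusted p = 0.0806 for both). For peaks per library, stimulated minus unstimulated, Il27 moved to 0.917 with a minimum −log10 q-value of 5 (adjusted p = 0.336), and Il12a passed within 10 kb (1.25; adjusted p = 0.0338). Il12b turned to -0.917 within 10 kb and -0.083 with a minimum −log10 q-value of 5, and Il23a to -0.083 in lists of equal length; none passed.

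The replicate numbers were checked as pairs: 12 pairs correlated at -0.011 to 0.009 and 1 of 12 libraries matched its own number best. With the replicate block, pooled gains were 4 and losses 1, control gains 1 and diabetic gains 1; the Il27 region at 0.2 kb (adjusted p = 0.06), that at 8.8 kb (0.0653) and the Il27 peak number (2.25; adjusted p = 0.0699) missed the threshold.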
